A study of Mus musculus with 15 samples.

Results

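The 2‐cell embryos from 6–8 m mothers were compared with 2‐cell embryos from 8–10 w mothers by RNA sequencing. The members were chosen by the sample titles, which put 2 samples in the 8–10 w group and 2 in the 6–8 m group, 4 of the 15 samples of the series. A further 2 samples of 2‐cell embryos from 10–12 m mothers shared the model, so that all 6 libraries estimated the spread between samples. The other 9 samples were MII oocytes and were not analysed here.

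All mothers were C57BL/6 females, superovulated with PMSG and hCG, and their oocytes were fertilised in vitro with sperm of adult C57BL/6 males and cultured in KSOM to the 2‐cell stage. The study's methods give virgin females for 8–10 w and retired breeders for the older groups, so that the age of the mother and her breeding history cannot be told apart. Each sample was a pool of embryos made into a Smart‐seq2 library from polyadenylated RNA. The labels do not say that the pools of a group came from separate mothers or fertilisations, so that the p‐values measure only the spread between these samples. The title and the sample type call the samples 2‐cell embryos, while the source field says oocyte.

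The mouse embryo is transcriptionally silent after fertilisation and lives on mRNA that the oocyte stored. Around the 2‐cell stage the maternal mRNA is cleared by deadenylation and decay, and the embryonic genome is switched on, with transient bursts of gene families such as Zscan4, Obox and Tdpoz. Age of the mother is known to lower the developmental potential of oocytes, and the RNA of a 2‐cell embryo holds both what is left of the oocyte's supply and what the embryo has newly made.

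The 8–10 w libraries held 15067298 and 13566504 fragments, and the 6–8 m libraries, which were deeper, 18703094 and 15723095. At least 1 fragment was found for 17345 and 16686 of the 24222 genes in the 8–10 w samples, and for 17682 and 17069 in the 6–8 m samples. Levels are given as FPM, the fragments on the longest RefSeq transcript of a gene per 1000000 fragments of the library after TMM scaling, in the order 8–10 w sample 1, 8–10 w sample 2, 6–8 m sample 1 and 6–8 m sample 2. Where levels of different genes were compared, they were divided by the transcript length in kb. Across the 13136 genes tested, the log levels of the 8–10 w samples correlated with r = 0.979 and those of the 6–8 m samples with r = 0.979, and the pairs between the groups ranged from 0.975 to 0.98. The values within the groups thus lay inside the range of those between them. The 6–8 m samples each lay closest to a different 10–12 m sample, with r = 0.983 between 6–8 m sample 1 and 10–12 m sample 2, and r = 0.983 between 6–8 m sample 2 and 10–12 m sample 1. Genes are not independent replicates, and these values describe the libraries only.

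The stage was checked against marker genes. All 7 markers of the 2‐cell embryo were detected in every sample, with Zfp352 at 244, 360, 396 and 325 FPM, Zscan4c at 42.8, 101, 129 and 88.8 FPM and Obox3 as the most abundant per length at 217 FPM per kb. Their summed level was 835, 1192, 1259 and 1083 FPM. All 8 oocyte and early embryo markers were also present, led by Dppa3, a maternal factor that protects the maternal genome from demethylation, at 5271, 6784, 3906 and 7543 FPM. Markers of the later preimplantation embryo were low, with a summed level of 11.3, 9.59, 11.7 and 12.9 FPM, and Cdx2 and Elf5 had no fragment in any of the 4 samples. Both titles and markers therefore gave a 2‐cell stage.

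Markers of other cells that a pool could hold were low and partly differed between the groups. Of the 16 cumulus and granulosa markers in the files, 4 were tested and 7 (Amh, Foxl2, Inha, Inhba, Ptx3, Nr5a1 and Lhcgr) had no fragment in any of the 4 samples. The summed level of the 16 was 11.4, 10.4, 16.9 and 14.9 FPM, most of it from Tnfaip6, the most abundant of them per length, and Cyp19a1. Tnfaip6, which encodes a hyaluronan‐binding protein of the expanded cumulus matrix, had 3.52, 3.32, 7.93 and 6.39 FPM, a log2 fold change of 1.07 ± 0.30 (SE) with an unadjusted p of 0.00179 in edgeR. Of the 4 cumulus and granulosa markers tested, 3 had a positive log2 fold change and 1, Star, a negative one. Star had 2.08, 0.679, 0.788 and 0.413 FPM (−1.17 ± 0.68), and its groups overlapped. Prm2, a sperm protamine, had 1, 2, 10 and 11 fragments, and was the only one of 8 sperm and testis markers that was tested. Blood markers summed to 12.2, 11.4, 13.8 and 22.1 FPM, with Hba-a1 as the most abundant per length, 2 of the 6 markers (among them Hbb-bs) at 0, and Lyz2, a lysozyme gene of myeloid cells, at 1.07, 1.28, 1.13 and 6.67 FPM. The part of these cells in the results below was not tested, and in pools of embryos fewer cells of a type and less RNA per cell cannot be told apart.

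No gene passed the test between 6–8 m and 8–10 w, which asked for a log2 fold change past 1 and an adjusted p‐value below 0.05 in edgeR's quasi‐likelihood test, so that the share called was 0% of 13136 genes. No gene had an adjusted p below 0.05 at any fold change, and the smallest was 0.29 in edgeR. At an unadjusted p below 0.05, 439 genes (3.34%) were higher and 292 (2.22%) were lower in 6–8 m, together 731 genes (5.56%). The split between the directions depended on the scaling, and with library totals in place of TMM 296 genes were higher and 322 lower. Without 6–8 m sample 2, 25 higher and 7 lower genes were called, without 6–8 m sample 1 there were 1 and 2, without 8–10 w sample 2 only Wdfy1, and without 8–10 w sample 1 none. With the filter on low counts lifted 6 and 6 were called, and with only the 4 samples in the fit 2 lower ones. DESeq2, run on all 19867 genes with at least 1 fragment and its own filtering, called 1 gene, Prl8a2, and gave 490 genes (2.47%) an unadjusted p below 0.05. Most genes differed little, with a median log2 fold change of −0.0034 and 83.6% of the genes within 0.5 of 0. A log2 value of 1 was passed by 451 genes, 283 higher and 168 lower. The median standard error was 0.575 in the 3284 genes with the lowest levels and 0.207 in the 3284 with the highest.

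Both 6–8 m samples lay above both 8–10 w samples for 2276 genes (17.3%) and below them for 2315 (17.6%). These shares and the 3.34% and 2.22% are the background against which the gene lists are read below. In the same model, the 10–12 m embryos differed from the 8–10 w embryos in 23 genes called (0.175%), whereas 10–12 m against 6–8 m gave 0 (0%) and 240 genes (1.83%) at an unadjusted p below 0.05. Both older groups were compared with, and so share, the 8–10 w samples, and their values are only set side by side.

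**Figure D1:**
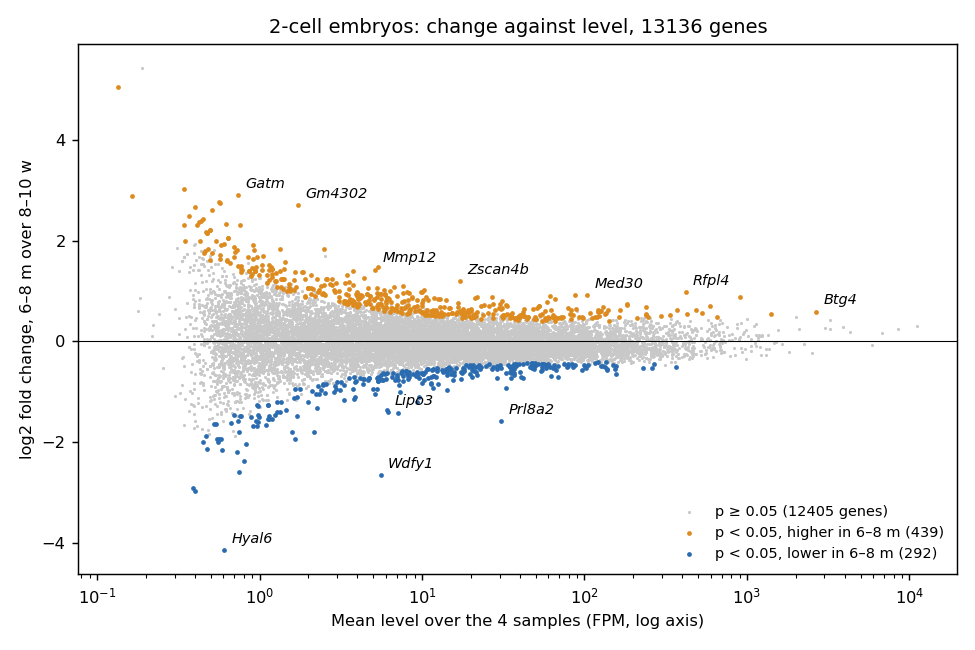
The log2 fold change of 6–8 m over 8–10 w (vertical axis) is plotted against the mean level over the 4 samples in FPM (horizontal log axis), with 1 point per gene tested. Orange and blue points are the 439 higher and 292 lower genes at an unadjusted p below 0.05, and the scatter widens towards low levels.

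Prl8a2, a member of the prolactin family best known from the decidua, had the smallest p of all genes. Its level was 39.9, 52.2, 16.7 and 14.1 FPM, so that both 6–8 m samples lay below both 8–10 w samples, by a log2 fold change of −1.58 ± 0.29 (SE) with an adjusted p of 0.29 in edgeR. The 10–12 m samples had 20.5 and 8.75 FPM, and did not differ from 6–8 m beyond the error (log2 difference −0.09, unadjusted p = 0.76). Prl8a2 was past an adjusted p of 0.05 in 5 of the 11 other settings, among them DESeq2 (0.03) and edgeR with only the 4 samples (8.9e-05), and its adjusted p ranged from 3.3e-07 to 0.989 over them.

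Mmp12, the macrophage elastase gene of the matrix metalloproteinase family, was the highest ranked of the genes with a higher level. It had 2.58, 3.02, 7.34 and 7.70 FPM, from 41, 40, 149 and 112 fragments. The samples of a group were close to each other and the groups were well apart, with a log2 fold change of 1.43 ± 0.29 (SE) and an adjusted p of 0.434 in edgeR. The 10–12 m samples were higher again, at 13.4 and 12.0 FPM, with a log2 difference of 0.76 from 6–8 m (unadjusted p = 0.0086).

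Med30, a subunit of the Mediator complex that links transcription factors to RNA polymerase II, had 58.7, 84.7, 131 and 141 FPM. Its log2 fold change was 0.92 ± 0.21 (SE) with an adjusted p of 0.58 in edgeR, and the 10–12 m samples lay above all of these at 171 and 196 FPM. Rfpl4, a RING finger gene of the oocyte, had 258, 307, 640 and 471 FPM, and both 6–8 m samples were above both 8–10 w samples (log2 fold change 0.98 ± 0.25). Gstm1, a glutathione S‐transferase, had 3.71, 1.89, 7.98 and 7.84 FPM, a log2 fold change of 1.48 ± 0.36. Zscan4b, of the 2‐cell specific Zscan4 family, had 7.23, 13.7, 29.6 and 18.2 FPM, a log2 fold change of 1.20 ± 0.32. Members of this family are near copies of each other, and the counting could split or share their fragments.

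The other genes of the 12 with the smallest p that were higher in 6–8 m without overlap were Gm4302, Gm4312, Gatm, 7420426K07Rik, Ptprd, 2510003B16Rik and Ceacam2. Gm4302 and Gm4312 are placed at more than 1 site of the genome, and their values are uncertain. Gatm, an enzyme of creatine synthesis, had only 3, 2, 31 and 16 fragments. Among these 12 genes the log2 fold changes ran from 0.91 to 2.89 and the adjusted p‐values from 0.434 to 0.82 in edgeR.

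Among the genes that were lower, Lipo3, a gene of the acid lipase family, had 8.05, 9.89, 4.29 and 2.41 FPM, a log2 fold change of −1.40 ± 0.32 (SE). Ercc3, a DNA helicase of the transcription and repair factor TFIIH, had 15.3, 16.8, 7.83 and 10.1 FPM, a log2 fold change of −0.84 ± 0.24. In both the groups did not overlap. Wdfy1, a WD repeat protein of endosomes, was decided by 1 library, with 16.9 FPM in 8–10 w sample 1 against 2.26, 1.38 and 1.72 FPM in the others. Its log2 fold change of −2.64 went to −0.55 without that library.

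Further genes among the 12 lower ones were Pwwp3b, Ppp1r2-ps7, Rap2c, Hyal6, Tex16, Ptpn4 and Pcdh19. Of these, Pwwp3b, Ppp1r2-ps7, Rap2c, Tex16 and Pcdh19 lie on the X chromosome. Rap2c, a small GTPase of the Ras family, had 10.1, 15.7, 4.73 and 6.60 FPM, and Ptpn4, a tyrosine phosphatase, had 15.1, 15.5, 7.39 and 8.87 FPM. Of the 498 X‐linked genes tested, 26 were higher and 20 lower at an unadjusted p below 0.05, which is 9.24% against 5.56% of all genes, and their median log2 fold change was −0.02. Adjusted p‐values of the 12 lower genes lay between 0.29 and 0.82 in edgeR. Of the other 11 settings, Mmp12, Gstm1, Rfpl4, Zscan4b, Rap2c, Gm4302, Gm4312 and 7420426K07Rik passed an adjusted p of 0.05 in 2 and Med30, Lipo3 and Pwwp3b in 1, while Wdfy1 passed in 5.

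**Figure D2:**
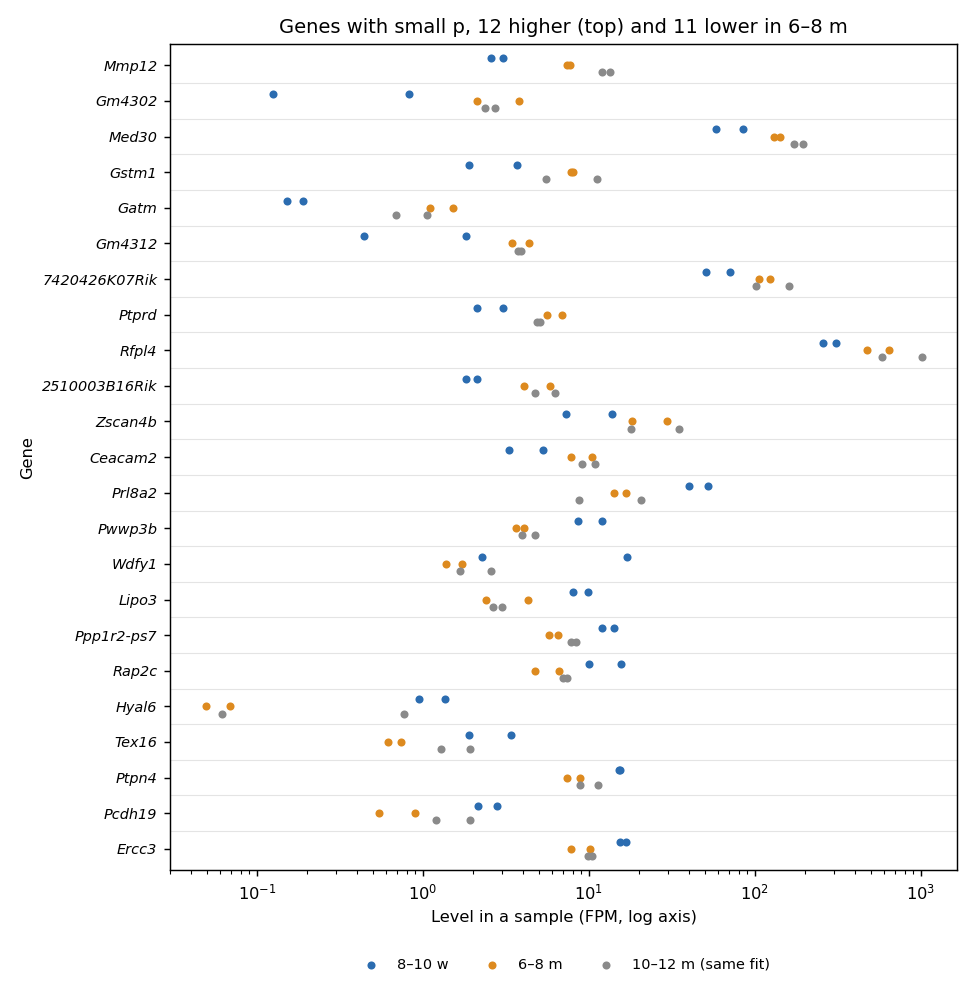
Each row is a gene and each point a sample, with its level in FPM on a log axis, for the 12 genes with the smallest p that were higher in 6–8 m (upper rows) and 11 of the 12 that were lower. Blue points are 8–10 w, orange 6–8 m and grey 10–12 m samples, and no orange point overlaps the blue ones of its row, since the rule asked for that.

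To show the start regions of genes from both directions, the RefSeq promoters (250 bases before to 50 after the start of the counted transcript, mm10, the GRCm38 assembly) of Mmp12 (chr9:7347124-7347423, plus strand), Lipo3 (chr19:33590262-33590561, minus strand) and Zscan4d (chr7:11166099-11166398, minus strand), a Zscan4 gene described below, are given 5′ to 3′, with the letters TATAAA in capitals.
Mmp12: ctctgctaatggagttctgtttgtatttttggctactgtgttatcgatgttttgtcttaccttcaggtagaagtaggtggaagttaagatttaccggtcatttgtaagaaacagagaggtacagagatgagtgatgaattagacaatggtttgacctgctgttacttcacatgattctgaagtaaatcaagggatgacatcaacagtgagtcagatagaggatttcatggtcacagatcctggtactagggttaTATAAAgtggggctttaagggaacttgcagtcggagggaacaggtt
Lipo3: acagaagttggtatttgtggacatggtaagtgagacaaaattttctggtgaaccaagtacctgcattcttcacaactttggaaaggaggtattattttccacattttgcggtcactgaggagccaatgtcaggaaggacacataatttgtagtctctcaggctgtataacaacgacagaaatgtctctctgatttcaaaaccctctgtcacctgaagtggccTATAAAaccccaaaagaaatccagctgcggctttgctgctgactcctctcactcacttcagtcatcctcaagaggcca
Zscan4d: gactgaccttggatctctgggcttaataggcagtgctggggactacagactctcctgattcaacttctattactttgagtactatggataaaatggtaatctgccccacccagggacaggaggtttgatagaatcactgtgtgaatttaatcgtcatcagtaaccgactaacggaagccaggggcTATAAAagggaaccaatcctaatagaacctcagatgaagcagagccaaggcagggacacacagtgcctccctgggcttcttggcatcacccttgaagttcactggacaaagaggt
TATAAA, searched on both strands, began 4 bases after the annotated start in Mmp12, 28 bases before it in Lipo3 and 65 bases before it in Zscan4d. Of all 32851 promoters, 13.6% hold these letters. Among the 24 genes of both directions, 15 had a promoter at the start of the counted transcript and 4 of these (Mmp12, Lipo3, Rfpl4 and Zscan4b) held them. The genes shown were not chosen by a rule and all hold these letters, and Zscan4d is not among the 24. A match is a description of the sequence, and RNA levels do not tell which start was used.

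The 5 largest fold changes in each direction were taken among genes without overlap and with an unadjusted p below 0.05 in edgeR. All of these genes but Wdfy1, described above, had few fragments. Ube2m, the conjugating enzyme of NEDD8, had 2, 2, 19 and 15 fragments, and Tox2 had 0, 0, 4 and 5. With Gatm, 4930470P17Rik with 2, 0, 10 and 11 fragments and Rgs7 with 0, 1, 9 and 2 made up the higher genes. In the other direction, Hyal6, a gene of the hyaluronidase family, had 15, 18, 1 and 1 fragments, Basp1 had 11, 10, 2 and 1, and Hs3st1, a heparan sulfate sulfotransferase, had 19, 18, 2 and 5. Irs4, an adaptor of the insulin receptor, had 9, 11, 2 and 1 fragments here, against 13 and 17 at 10–12 m. Its log2 difference between 10–12 m and 6–8 m was 3.54 with an unadjusted p of 0.000483 and an adjusted p near 1 in edgeR. In each of these 9 genes the lower group had at most 5 fragments a sample, and the standard errors of their log2 fold changes ran from 0.73 to 1.84.

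Maternal effect and oocyte genes, the oocyte's own store, had more higher than lower members. Of 37 tested, out of 39 in the files, 4 were higher and none lower at an unadjusted p below 0.05, 10.8% against the 3.34% of all genes, and their median log2 fold change was 0.13 against −0.0034. That median was 0.055 without 8–10 w sample 1 and 0.08 without either 6–8 m sample. Izumo1r, the egg receptor for the sperm protein Izumo1, had 4.91, 3.55, 8.77 and 8.11 FPM (log2 fold change 0.99 ± 0.32). Bcl2l10, an oocyte member of the Bcl2 family, had 412, 486, 842 and 618 FPM (0.70 ± 0.23). Oosp3, an oocyte secreted protein, had 383, 473, 538 and 722 FPM (0.56 ± 0.22). Zbed3, which belongs to the subcortical maternal complex, had 595, 684, 1612 and 742 FPM, so that its log2 fold change of 0.88 ± 0.32 rested mostly on 6–8 m sample 1. Of the 37, 14 lay above and 6 below the 8–10 w samples without overlap, against a background of 17.3% and 17.6%. The adjusted p‐values of the 4 genes were between 0.866 and 0.889 in edgeR.

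The machinery that removes maternal mRNA had members in both directions. Of 31 genes tested, out of 32, 5 were higher and 1 lower at an unadjusted p below 0.05, with a median log2 fold change of 0.01. That median was −0.0064 with library totals, and ran from −0.054 without 8–10 w sample 1 to 0.14 without 8–10 w sample 2. Btg4, the adaptor that brings the CCR4‐NOT deadenylase to maternal mRNA and the most abundant of these genes per length, had 1795, 2454, 3347 and 3056 FPM (log2 fold change 0.59 ± 0.24). Cnot3, a subunit of that deadenylase, had 7.48, 7.10, 14.1 and 11.8 FPM (0.83 ± 0.25). Lsm1 and Patl1, which act in decapping, had log2 fold changes of 0.44 ± 0.20 and 0.50 ± 0.23, with the groups apart for both. Pan3, of the PAN2‐PAN3 deadenylase, had 306, 387, 372 and 644 FPM, and its groups overlapped. Pabpc1, the poly(A) binding protein that coats the tail, had 139, 165, 96.0 and 122 FPM, a log2 fold change of −0.48 ± 0.21. The summed level of the list was 4738, 6049, 6595 and 6834 FPM, mean 5393 ± 927 (SD, n = 2) against 6715 ± 169. Most of that difference was Btg4 itself, with a mean of 2124 ± 466 against 3201 ± 205 FPM. An exact permutation of 2 against 2 samples cannot go below 0.33, and sums were therefore not tested.

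The list of 2‐cell stage activation genes had members in both directions. It includes Obox genes that the oocyte also holds, and stored and new RNA were not told apart. Of 37 tested, 5 were higher (13.5%) and 2 lower (5.41%) at an unadjusted p below 0.05, and the median log2 fold change was 0.11. That median was −0.016 without 8–10 w sample 1 and −0.023 without 6–8 m sample 1, against 0.24 and 0.19 without sample 2 of either group. Zscan4d, a DNA binding protein of the 2‐cell burst, had 71.9, 119, 156 and 136 FPM (log2 fold change 0.62 ± 0.25). Obox5 and Obox1, homeobox genes of the oocyte and early embryo, had 934, 1361, 1658 and 1673 FPM (0.54 ± 0.24) and 208, 280, 329 and 367 FPM (0.51 ± 0.22). Tdpoz4 and Tdpoz2, of a BTB domain family, had log2 fold changes of 0.66 ± 0.29 and 0.52 ± 0.25. Pramel7, a gene of the Prame family, was lower and tight within the groups, at 161, 165, 108 and 114 FPM (−0.55 ± 0.19). Klf5, a Krüppel‐like factor of the early embryo, had 21.3, 22.2, 13.0 and 16.2 FPM (−0.58 ± 0.23). In 4 of the 5 higher genes, all but Tdpoz2, 8–10 w sample 1 was the lowest of the 4 samples. Obox1 was higher again in the 10–12 m samples, at 495 and 649 FPM, with a log2 difference of 0.72 from 6–8 m (unadjusted p = 0.004), whereas Tdpoz2 was back at 8.04 and 8.50 FPM against 13.3 and 11.2 in 6–8 m. These families are multi‐copy in part, and their members can share fragments.

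**Figure D3:**
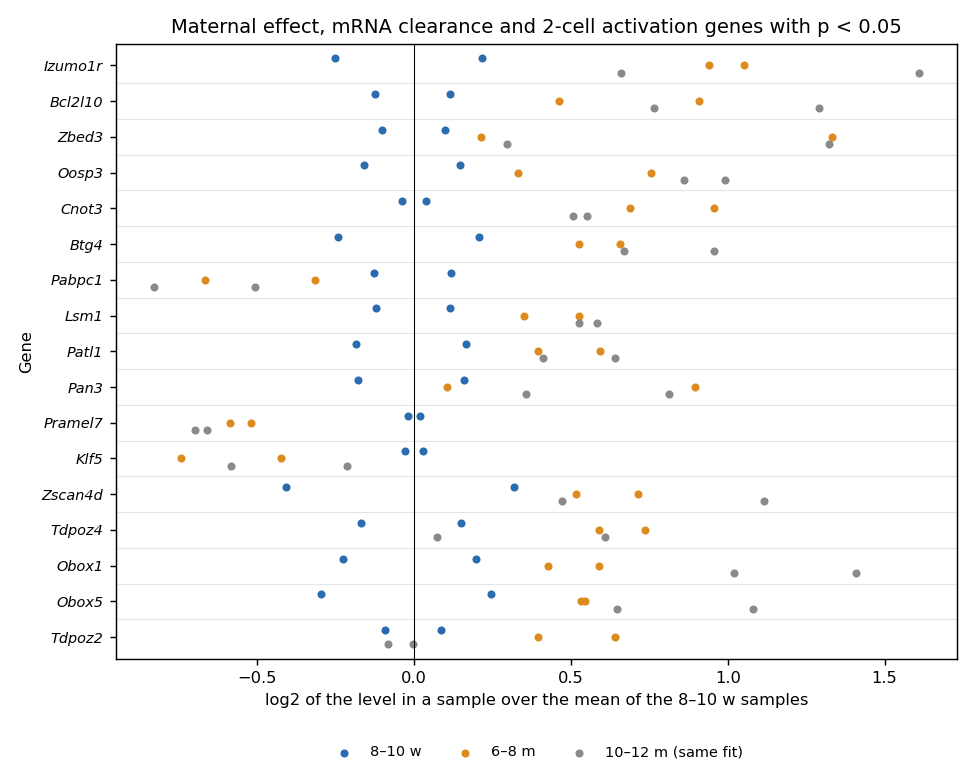
For the maternal effect (upper 4 rows), mRNA clearance (next 6) and 2‐cell activation genes (lower 7) with an unadjusted p below 0.05, each point is a sample, placed by the log2 of its level over the mean of the 8–10 w samples. Orange points (6–8 m) lie apart from blue ones (8–10 w) in each row except Pan3, and Pabpc1, Pramel7 and Klf5 are the rows to the left of 0.

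Ribosome biogenesis, which starts anew when the embryonic genome is switched on, had 30 genes tested, and none was past an unadjusted p of 0.05. Of these, 26 had a negative log2 fold change, with a median of −0.16 (−0.10 without 8–10 w sample 1), and 13 had both 6–8 m samples below both 8–10 w samples, against 17.6% of all genes. Polr1a, the largest subunit of RNA polymerase I, had 17.7, 12.5, 9.95 and 11.6 FPM, and Nop2, a nucleolar rRNA methyltransferase, had 32.1, 23.9, 22.7 and 19.6 FPM. Npm1, the most abundant per length, belongs to the same list, whose summed level was 3397, 3088, 2766 and 3016 FPM. The 82 cytosolic ribosomal protein genes tested, out of 83, gave no gene at that p either, with 58 negative and a median of −0.08 (−0.21 without 8–10 w sample 2 to 0.13 without 8–10 w sample 1).

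For the splicing machinery, which was the subject of the study, the differences in RNA level were small. Of 46 core spliceosome genes tested, out of 48, 2 were lower and none higher at an unadjusted p below 0.05, 4.35% against 2.22% of all genes, and the median log2 fold change was −0.05 (−0.10 without 8–10 w sample 2 to 0.0071 without 8–10 w sample 1). Snrnp200, the RNA helicase that unwinds U4 from U6, had 11.9, 10.7, 6.11 and 8.05 FPM (log2 fold change −0.68 ± 0.28). Of 44 SR proteins, hnRNPs and other regulators, 1 was higher and 1 lower, with 32 negative and a median of −0.11, which ran from −0.062 without 8–10 w sample 2 to −0.22 without 6–8 m sample 2. Of the 46 core genes, 13 lay below and 4 above the 8–10 w samples without overlap. For the 44 regulators these counts were 15 below and 2 above, against a background of 17.6% and 17.3%. Rbmx had 21.9, 23.7, 40.0 and 36.0 FPM (0.74 ± 0.21), but only 23.5 and 31.8 FPM in the 10–12 m samples, and its log2 fold change was 0.18 when the transcript with the most fragments stood for the gene. Tra2b, which promotes exon inclusion, had 170, 143, 111 and 111 FPM (−0.50 ± 0.20). Puf60, a splicing factor that the study examined, had 12.9, 11.9, 10.5 and 8.66 FPM, a log2 fold change of −0.37 ± 0.25 with an unadjusted p of 0.151 in edgeR. With a replicate left out, the log2 fold change of Puf60 ran from −0.51 to −0.21. These are levels of whole transcripts, and the use of single exons was not measured here. The study reported lower splicing proteins, PUF60 among them, in MII oocytes of older mice. RNA levels of 2‐cell embryos do not measure protein, nor that stage.

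Cdk9, the kinase that releases paused RNA polymerase II and that the study followed up, had 30.3, 27.7, 24.5 and 20.3 FPM. Both 6–8 m samples lay below both 8–10 w samples, with a log2 fold change of −0.37 ± 0.21 (SE), an unadjusted p of 0.0941 and an adjusted p of 0.903 in edgeR. This log2 fold change ran from −0.51 to −0.22 with a replicate left out. The log2 difference of 10–12 m from 6–8 m was 0.00 (unadjusted p = 0.99). Among the 32 elongation genes tested, Ell2, of the super elongation complex, was the only one past an unadjusted p of 0.05, at 113, 117, 75.6 and 92.4 FPM (−0.46 ± 0.20), and the median was −0.06 (−0.12 without 6–8 m sample 2 to 0.010 without 8–10 w sample 2).

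DNA repair genes stayed near the median of all genes. None of the 23 damage signalling genes and none of the 31 genes of homologous recombination and the Fanconi anaemia pathway was past an unadjusted p of 0.05, with medians of −0.01 (−0.041 without 6–8 m sample 2 to 0.067 without 8–10 w sample 2) and −0.06 (−0.081 without 6–8 m sample 2 to 0.057 without 6–8 m sample 1). Of 41 end joining and excision repair genes tested, out of 44, 3 were lower (7.32%) and none higher, with a median of −0.03 (−0.093 without 6–8 m sample 2 to 0.025 without 6–8 m sample 1). Besides Ercc3, these included Gtf2h2, another subunit of TFIIH, with 27.8, 24.4, 19.3 and 18.5 FPM (−0.46 ± 0.22). Of further genes that the study names, Fanca had 7.04, 6.26, 6.65 and 5.09 FPM (−0.18 ± 0.28) and Mnat1 21.3, 14.9, 18.1 and 15.4 FPM (−0.12 ± 0.23), with the groups overlapping in both. Ube2d3, a ubiquitin conjugating enzyme, had 880, 1110, 1274 and 1255 FPM (0.35 ± 0.23), with the 6–8 m samples above the 8–10 w samples and an unadjusted p of 0.153 in edgeR. With a replicate left out, its log2 fold change ran from 0.19 to 0.55. Of the 17 p53 target genes tested, out of 20, 1 was higher, Perp, at only 0.566, 0.83, 1.97 and 1.24 FPM, and the median was −0.10 (−0.16 without 6–8 m sample 1 to −0.026 without 8–10 w sample 1).

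Cohesin and shugoshin genes, whose loss from oocyte chromosomes is a known part of maternal ageing, gave none of 19 tested, out of 20, past an unadjusted p of 0.05, and 15 were negative with a median of −0.08 (−0.17 without 8–10 w sample 1 to 0.0034 without 8–10 w sample 2). Of the 25 spindle checkpoint and kinetochore genes, Nuf2 was higher at 86.6, 107, 139 and 134 FPM (0.49 ± 0.21), with a median of −0.11 (−0.13 without 6–8 m sample 1 to −0.048 without 8–10 w sample 1). None of the 34 cell cycle and replication genes was past that p, with a median of −0.08 (−0.12 without 8–10 w sample 1 to −0.025 without 8–10 w sample 2).

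Mitochondrial and stress genes had members in both directions. Of the 61 nuclear genes of oxidative phosphorylation, 2 were higher and none lower at an unadjusted p below 0.05, and the median log2 fold change was 0.10, with 39 positive. It was −0.024 without 8–10 w sample 2, 0.013 without 6–8 m sample 2, and 0.24 and 0.20 without sample 1 of either group. Ndufa1, of complex I, had 12.8, 11.7, 14.7 and 27.2 FPM (0.77 ± 0.26), and Cox6c, of complex IV, had 52.0, 43.6, 54.6 and 77.8 FPM (0.47 ± 0.22), so that in both the difference lay mainly in 6–8 m sample 2. Sirt1, a deacetylase, was the 1 lower gene of 20 mitochondrial maintenance and sirtuin genes tested, out of 23 with a median of −0.13 (−0.23 without 8–10 w sample 2 to −0.017 without 8–10 w sample 1), and had 229, 312, 152 and 222 FPM (−0.53 ± 0.24). Of the 24 antioxidant genes tested, out of 27 with a median of 0.06 (−0.079 without 6–8 m sample 1 to 0.15 without 6–8 m sample 2), Gstm1 and Hmox1 were higher (8.33% against 3.34% of all genes) and Gclc and Srxn1 lower (8.33% against 2.22%). Hmox1, haem oxygenase, had 2.7, 1.43, 7.49 and 1.72 FPM, and its groups overlapped, while Gclc, of glutathione synthesis, had 16.4, 18.1, 9.56 and 14.5 FPM (−0.52 ± 0.25). Eif2ak3, the PERK kinase, was the 1 gene of 23 in the heat shock and unfolded protein response list, with 35.2, 43.6, 23.9 and 32.8 FPM (−0.47 ± 0.22), and the median was −0.02 (−0.057 without 6–8 m sample 2 to −0.010 without 8–10 w sample 2). The 31 proteasome genes gave none, with a median of −0.06 (−0.23 without 8–10 w sample 2 to 0.096 without 8–10 w sample 1).

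Among chromatin genes, the median of the modifiers lay near that of all genes and the median of the histones above it. Of 34 genes of DNA methylation and histone modification, Kdm6b, a demethylase of H3K27, was higher at 66.6, 72.3, 109 and 108 FPM (log2 fold change 0.65 ± 0.21), and the median was −0.06 (−0.14 without 6–8 m sample 2 to 0.024 without 8–10 w sample 2). Of the 21 histone genes tested, out of 43 with a median of 0.27, H3c14 and H3c15 were higher, but they carry the same counts in every sample, with 0.943, 1.66, 2.61 and 2.75 FPM, and amount to 1 measurement. The histone median was 0.68 without 8–10 w sample 1 and 0.060 without 8–10 w sample 2. Of the 21, 15 were positive and 6 negative, and 5 lay above and none below the 8–10 w samples without overlap. The summed level of the 43 histone genes was 3908, 4430, 3927 and 4262 FPM, and its groups overlapped. Histone genes lack a poly(A) tail in part, and their level in this assay does not measure them all.

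Innate immune genes gave 1 higher and 1 lower of 18 tested, out of 26, and a median of 0.08 (−0.30 without 6–8 m sample 1 to 0.21 without 8–10 w sample 1). Ddx58, the RIG‐I sensor of RNA, had 9.31, 8.76, 17.5 and 14.9 FPM (0.84 ± 0.26), and Ddx60, a helicase of the same response, had 11.5, 8.91, 5.47 and 6.81 FPM (−0.74 ± 0.28). Ddx60 was lower still in the 10–12 m samples, at 3.77 and 2.92 FPM, with a log2 difference of −0.88 from 6–8 m (unadjusted p = 0.0089).

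Ddx60 is also on the list of genes that the study gives as differing between MII oocytes of the same ages, which were other samples. Of the 26 genes of that list found here, 12 passed the filter on low counts, 4 were lower (33.3%) and none higher at an unadjusted p below 0.05, and 10 were negative, with a median log2 fold change of −0.42 against −0.0034 for all genes. That median was −0.68 without 6–8 m sample 1 and −0.24 without 6–8 m sample 2. The list holds genes of either direction in the oocytes, so that its median and sign count mix both, and directions in the oocytes were not compared here. The 4 were Prl8a2, Lipo3, Ddx60 and Gca, a calcium binding protein, which had 12.6, 8.08, 7.88 and 4.74 FPM (−0.71 ± 0.30). The summed level of the 26 genes was 164, 166, 120 and 91.1 FPM, of which Prl8a2 and Slc16a6 were a large share. Slc16a6, a monocarboxylate carrier, had 74.2, 67.7, 66.8 and 47.4 FPM.

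**Figure D4:**
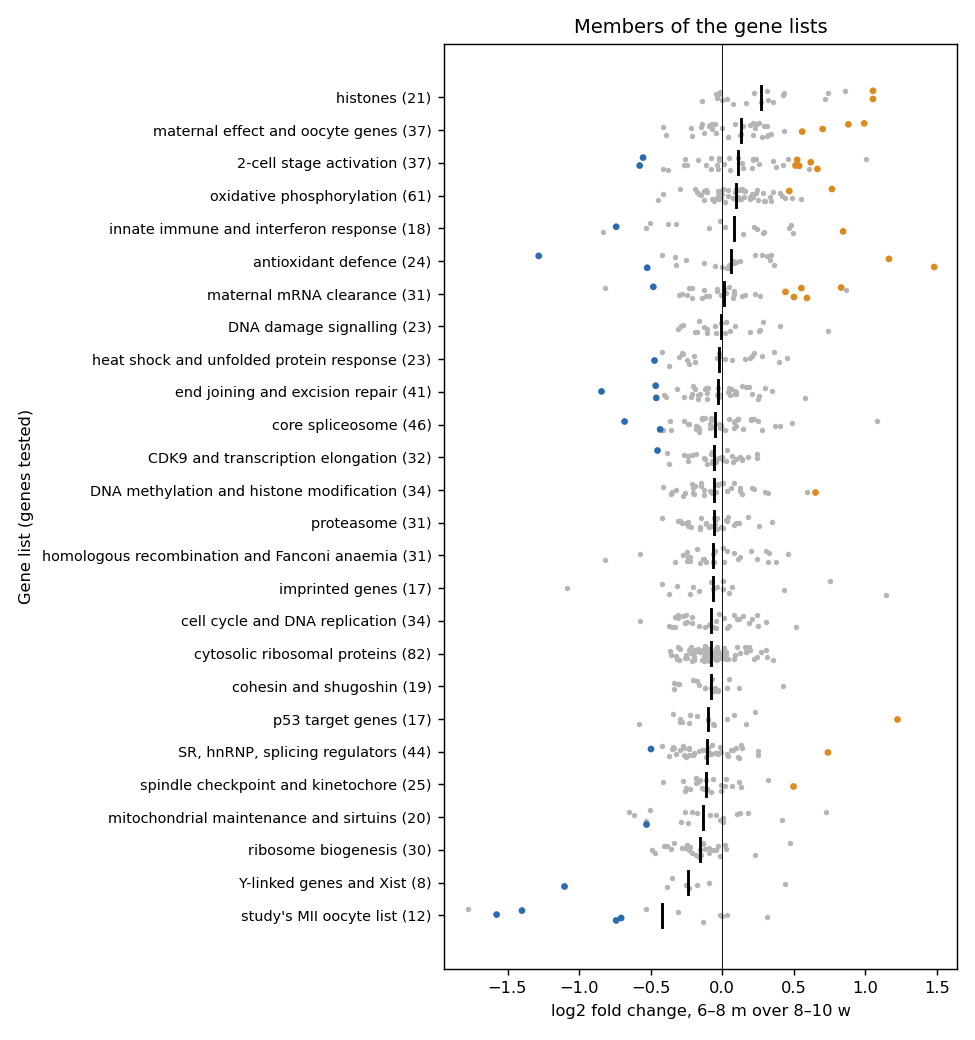
Each row is a gene list with the number of genes tested, each point a gene placed by its log2 fold change of 6–8 m over 8–10 w, and the black bar is the median of the list. Orange and blue points are genes higher or lower at an unadjusted p below 0.05, and medians run from −0.42 for the study's MII oocyte list to 0.27 for histones.

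The change also moved with the length and the level of the transcript. The median log2 fold change went from 0.11 in the 3286 genes with the shortest transcripts through 0.02 and −0.03 to −0.09 in the 3283 with the longest, over 4 bins of about equal size. By level it went from 0.10 in the lowest of 4 bins to −0.05 in the highest. The 10 genes with the highest FPM were ranked here without division by length. They held 7.63% and 8.97% of the fragments on genes in the 8–10 w samples and 9.22% and 10.2% in the 6–8 m samples. Their part in the list medians, like that of length and level, was not tested. Ribosome biogenesis genes had a median transcript length of 2857 bases and oxidative phosphorylation genes of 744 bases. Cytosolic ribosomal protein genes had a median transcript length of 717.5 bases. Their median log2 fold change was −0.08, and ran from −0.21 to 0.13 with a replicate left out.

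**Figure D5:**
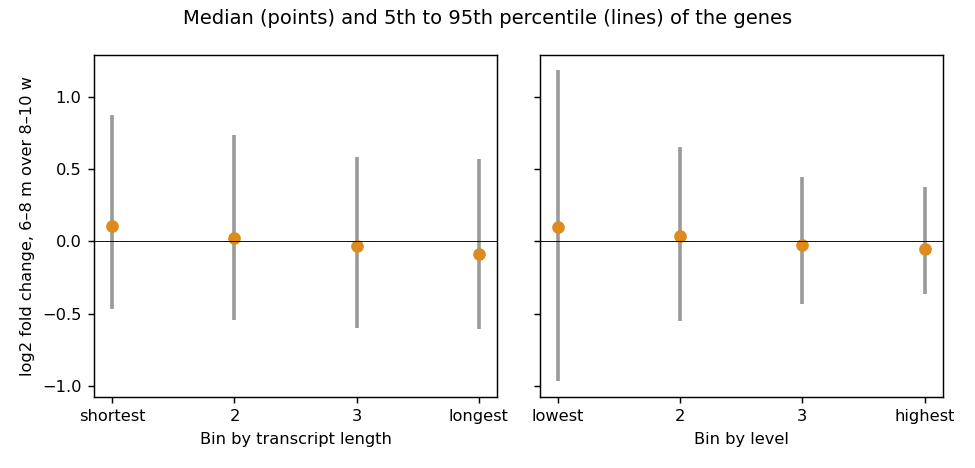
Points give the median and lines the 5th to 95th percentile of the log2 fold change of 6–8 m over 8–10 w, in 4 bins of the 13136 genes by transcript length (left) and by mean level over the 4 samples (right). The medians go from 0.11 to −0.09 with length and from 0.10 to −0.05 with level, well inside the spread of the genes.

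The most abundant RNAs per length included maternal ones such as Dppa3 and Btg4 as well as genes of all cells, such as Rpl41 and Calm2. Omt2b, Dppa3, Omt2a, Mphosph6, Rpl41, Spin1, Cks2, Oog3, Calm2 and Btg4 led the list, from 9180 FPM per kb for Omt2b to 2031 for Btg4. Within this set the samples of a group could differ more than the groups. Omt2a had 7486, 8043, 7161 and 11231 FPM, and Rpl41, a ribosomal protein, had 1424, 1337, 868 and 1615 FPM, with 6–8 m sample 2 the highest and 6–8 m sample 1 the lowest in both. Spin1, a reader of histone methylation needed in meiosis, had 8053, 11981, 12001 and 12795 FPM, with 8–10 w sample 1 lowest. None of these 10 genes was past an unadjusted p of 0.05 except Btg4.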

How the data were processed

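RNA of 2‐cell embryos was sequenced in 6 samples, and 4 of them form the comparison. For each sample the authors deposited the count of fragments on every RefSeq transcript (mm10) and the same count scaled to the library, a signal column (FPM), which was used here only to recover the total number of fragments. The program behind these tables is not given in the sources used here, and the submitters' processing notes name STAR and HTSeq. Overlapping transcripts could share fragments, as did H3c14 and H3c15, which overlap and carry the same counts in every sample. The FPKM column and the MII oocyte files were not used here.

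Of 34755 accessions, 34424 matched a RefSeq symbol, and the longest transcript stood for each of the 24222 genes. Of these genes, 5938 had more than 1 placement. The fragment counts of all 6 samples entered edgeR 4.0.16 (quasi‐likelihood test, R 4.3.3), with TMM and edgeR's filter (minimum count 10, minimum total 15), and p‐values were adjusted by Benjamini‐Hochberg over 13136 genes. The standard error was taken from the F statistic. The common biological coefficient of variation was 0.18. The method was tested on simulated data. Alternatives were DESeq2 1.42.0, its size factors in edgeR, library totals, all genes with at least 1 fragment, the 4 samples alone, a replicate block, the transcript with the most fragments, an adjusted p of 0.1, no fold change threshold and each replicate left out. Figures were drawn with matplotlib 3.10.9.

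Genes were named if called, if among the 12 of each direction with the smallest p or the 5 with the largest change without overlap between groups, if among the 2 smallest p or the most abundant of a list, if among the 10 most abundant, if followed up by the study, or if at 0 in a whole group. The 5 with the largest change were taken among genes with an unadjusted p below 0.05 in edgeR. Other genes named (among them Zfp352, Zscan4c, Cyp19a1, Slc16a6, Patl1 and the further members of a list past an unadjusted p of 0.05) were picked once their values had been seen. Results of a few genes that the rule names are not reported here. The members and the 26 gene lists were chosen with earlier results of these data known.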

Additional observations from a re-analysis of the deposited data

How the results depend on the processing

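The count of genes called depended on the samples and genes in the fit. Against 0 higher and 0 lower, all genes with at least 1 fragment gave 6 higher and 6 lower, the 4 samples alone gave 2 lower (Prl8a2 and Wdfy1), and DESeq2, which also took in more genes (19867 against 13136), gave 1 lower and 283 genes higher at an unadjusted p below 0.05 against 439. Leaving out a replicate gave 0 to 25 genes called higher and 0 to 7 lower, and 384 to 651 higher and 213 to 413 lower genes at an unadjusted p. The highest values came without 6–8 m replicate 2 (25 higher, 7 lower), whereas 1 higher and 2 lower were called without 6–8 m replicate 1, 1 lower without 8–10 w replicate 2, and none without 8–10 w replicate 1. Where a replicate is left out, the lone sample is assumed to vary like the other groups. An adjusted p of 0.1 or no fold change threshold left both counts at 0. The causes were not tested.

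Same‐numbered samples of 6–8 m and 8–10 w deviated together with r = 0.19, from only 2 pairs, which does not settle whether the numbers pair the samples. The 6–8 m samples each lay closest to the 10–12 m sample of the other number (r = 0.983 in both), which a block by number does not follow. The study's methods place the 6 samples in 2 separate experiments, but no label assigns a sample to an experiment, and the experiment therefore entered no fit. With the replicate block 0 genes were called higher and 0 lower, with 381 higher and 252 lower at an unadjusted p below 0.05.

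Directions turned for 12 of the named genes when a replicate was left out, and for none of those recomputed under the other settings. On the log2 scale, the values ran for Fanca from −0.39 to 0.023, Mnat1 from −0.32 to 0.17, Hmox1 from −0.28 to 1.86, Dppa3 from −0.60 to 0.32, Obox3 from −0.19 to 0.16, Lyz2 from −0.022 to 2.50, Rpl41 from −0.64 to 0.23, Omt2a from −0.092 to 0.53, Omt2b from −0.17 to 0.47, Cks2 from −0.20 to 0.16, Calm2 from −0.64 to 0.12 and for Xist from −0.12 to 1.51. Of the 286 list medians recomputed, 21 moved by more than the spread between replicates, with 265 that did not. The sign of the median turned in at least 1 setting for 15 of the 26 lists, and kept to 1 sign for ribosome biogenesis, maternal effect genes, histones and the study's MII oocyte list among others. The depth of 13566504 to 18703094 fragments limits genes at a few fragments, where the error is largest, and with 2 samples a group a p that misses the threshold does not show that levels were equal.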

Other observations

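Some genes had fragments in only 1 of the groups. In both 6–8 m samples but neither 8–10 w sample, 294 genes had at least 1 fragment, 8 had at least 5 and 0 had at least 10. The reverse held for 137, 2 and 0 genes, and the 6–8 m libraries were the deeper ones. The best covered were Gsdma3, a gasdermin gene, with 11 and 7 fragments in the 6–8 m samples, Pgf, the placental growth factor, with 9 and 6, and Unc5a, a netrin receptor, with 9 and 6. In the 8–10 w samples alone they were A930013F10Rik with 7 and 5 fragments and Nphs1os with 5 and 6. A count of 0 allows up to 3 fragments, which is 0.189 and 0.226 FPM in the 8–10 w libraries and 0.148 and 0.206 FPM in the 6–8 m libraries, for counting error only.

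Of the 8 genes tested from the list of Y‐linked genes and Xist, with a median log2 fold change of −0.24 (−0.10 without 8–10 w sample 1 and −0.16 without 6–8 m sample 1), Zfy2, a zinc finger gene of the Y chromosome that is active early, was lower at an unadjusted p below 0.05, with 4.72, 5.89, 2.56 and 2.34 FPM. It had 5.82 and 4.22 FPM in the 10–12 m samples, a log2 difference of 1.02 from 6–8 m (unadjusted p = 0.0065). Xist, the RNA that silences the X chromosome, had 4.78, 1.51, 4.43 and 4.19 FPM. Eif2s3y, the most abundant of the list per length, had 24.5, 17.0, 15.1 and 17.6 FPM, so that the groups overlapped. The share of male embryos in a pool is not given by the labels, and its part in these values was not tested.

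Of the 17 imprinted genes tested, out of 25, none was past an unadjusted p of 0.05, and the median log2 fold change was −0.07 (−0.26 without 6–8 m sample 2 to 0.073 without 8–10 w sample 2). Kcnq1ot1, a long RNA of the paternal allele, had 13.3, 13.8, 10.3 and 9.83 FPM, and Phlda2, the most abundant per length, had 47.8, 45.3, 46.1 and 51.7 FPM. Medians of the log2 fold change by chromosome, for 1 to 19 and X, lay between −0.03 and 0.03, and the Y chromosome, with under 20 genes tested, was left out.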
